A study of Mus musculus with 12 samples.

Results

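The genes examined were 9 chemokines of mouse liver, Cxcl1, Cxcl9, Cxcl10, Cxcl12, Cxcl13, Ccl2, Ccl6, Ccl9 and Ccl24, taken by their gene symbols from the 38926 symbols in each count file. All 9 were present in the files, and 8 of them had enough reads to be among the 14488 genes tested. Livers came from 12 male mice of 12 weeks of age on a mixed 129Ola/C57BL6 background, bred from heterozygous parents. All animals were kept under 12 h of light and 12 h of darkness with free access to food and water. The 4 groups of 3 mice were wild type (WT) at ZT8, Rev-erbα-/- (Rev KO) at ZT8, WT at ZT20 and Rev KO at ZT20, where ZT (zeitgeber time) counts the hours since lights on. The Rev KO mice lack REV-ERBα, a heme-binding nuclear receptor of the circadian clock that represses transcription and is encoded by Nr1d1. The knockout is carried in every cell and throughout development, so that effects arising in hepatocytes cannot be told apart from those arising in immune cells of the liver or in other organs.

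Chemokines are small secreted proteins that attract leukocytes through G-protein-coupled receptors. In the liver, Cxcl1 attracts neutrophils through Cxcr2, Cxcl9 and Cxcl10 attract T and NK cells through Cxcr3, Cxcl13 attracts B cells through Cxcr5, and Cxcl12 acts in homeostasis through Cxcr4 and the scavenging receptor Ackr3. Ccl2 attracts monocytes through Ccr2, Ccl24 attracts eosinophils through Ccr3, and Ccl6 and Ccl9 are myeloid chemokines of rodents that signal through Ccr1. Cxcl1 and Ccl2 are textbook targets of NF-κB, and Cxcl9 and Cxcl10 are induced by interferons. The study asked how REV-ERBα bears on the glucocorticoid receptor and on NF-κB, and the chemokines are examined here as inflammatory transcripts of the unchallenged liver.

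Between 17641809 and 26060192 reads per liver were counted on genes. Levels are given as CPM, counts relative to the TMM-scaled library size. A floor was set at 3 counts, which corresponded to 0.115 to 0.170 CPM before that scaling. Reads were still assigned to Nr1d1 in the Rev KO livers, between 62.99 and 80.6 CPM at ZT8 against 75.3 to 129 CPM in WT, and the 2 genotypes did not pass the test there (edgeR quasi-likelihood test, adjusted p = 0.143), so that the transcript count did not check the genotype labels. The study itself reported Rev-erbα mRNA, by qRT-PCR, and REV-ERBα protein, by staining at ZT8 and ZT20, as absent from Rev-erbα-/- liver. The 8 hepatocyte markers examined, Alb (albumin) among them, were all detected, with a summed level of 61670 to 112400 CPM. Replicates 2 and 3 of WT at ZT8 stood apart from the other 10 livers in acute-phase genes, as described below. In whole liver, fewer cells of a type and less RNA per cell cannot be told apart. Nothing in the labels says more of the replicates than their number, so that p-values measure the spread between these livers.

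The genes lie on 3 chromosomes (mm10, GENCODE M21). Cxcl9 (chr5:92321347-92328079, minus strand) and Cxcl10 (chr5:92346638-92348889, minus strand) are neighbours with 18.6 kb between them. Cxcl1 (chr5:90891241-90893115, plus strand), Cxcl13 (chr5:95956951-95961068, plus strand) and Ccl24 (chr5:135569937-135573049, minus strand) lie on the same chromosome. Ccl9 (chr11:83572919-83578636, minus strand) and Ccl6 (chr11:83587882-83593087, minus strand) are separated by 9.24 kb, and Ccl2 lies at chr11:82035571-82037453 on the plus strand. Cxcl12 lies at chr6:117168535-117181367 on the plus strand. The exons of Cxcl10 share 133 bases with Art3 on the opposite strand, and because the counting did not use strand, reads there cannot be assigned to either gene with certainty. Ccl2 and Ccl6 overlap Gm17268 and E230016K23Rik without sharing exon bases.

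Promoter sequences (RefSeq, GRCm38.p6) were found for 7 of the 9 genes, but not for Ccl2 and Ccl24. The stretches before the start site are shown for the genes that the results below turn on. Capitals mark 3 motifs searched on both strands in the 250 bases before the start, namely AGGTCA, the half-site bound by REV-ERBα and ROR receptors, the κB consensus bound by NF-κB, and 2 GAAA blocks separated by any 2 bases, the core of interferon response elements. The half-site was found in 14% of all 32851 promoters, the κB consensus in 7.25% and the paired GAAA blocks in 2.98%.
Cxcl9 (chr5:92328090-92328229, minus strand): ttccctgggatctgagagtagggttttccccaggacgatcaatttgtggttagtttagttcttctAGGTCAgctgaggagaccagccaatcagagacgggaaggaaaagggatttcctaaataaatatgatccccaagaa
Cxcl13 (chr5:95956789-95956928, plus strand): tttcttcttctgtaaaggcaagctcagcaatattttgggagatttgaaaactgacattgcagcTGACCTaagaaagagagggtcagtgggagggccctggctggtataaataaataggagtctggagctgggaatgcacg
Cxcl1 (chr5:90891095-90891234, plus strand): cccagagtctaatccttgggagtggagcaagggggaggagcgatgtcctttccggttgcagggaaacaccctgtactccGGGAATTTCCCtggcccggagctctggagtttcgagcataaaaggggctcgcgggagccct
Cxcl10 (chr5:92348900-92349109, minus strand): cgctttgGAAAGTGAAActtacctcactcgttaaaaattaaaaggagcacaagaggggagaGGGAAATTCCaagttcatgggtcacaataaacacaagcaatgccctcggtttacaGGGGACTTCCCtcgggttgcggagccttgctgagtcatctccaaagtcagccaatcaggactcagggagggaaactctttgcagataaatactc
Ccl9 (chr11:83578647-83578786, minus strand): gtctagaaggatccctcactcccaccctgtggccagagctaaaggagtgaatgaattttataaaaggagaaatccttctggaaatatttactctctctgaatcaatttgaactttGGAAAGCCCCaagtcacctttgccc
The half-site was present in Cxcl9, beginning 85 bases before the start, and, on the opposite strand, in Cxcl13 and in Ccl6 (not shown). The κB consensus was present in Cxcl1, in Cxcl10 at 3 positions, 2 of which overlap, and in Ccl9 on the opposite strand. Cxcl10 alone of the 7 promoters held the paired GAAA blocks, and Cxcl12 held none of the motifs. In Cxcl1 and Cxcl10, 2 overlapping κB matches are printed as a single run of capitals. These matches describe the letters of the promoters and say nothing about binding in these livers.

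Chemokine transcripts differed widely in level. Per kilobase of exon, Cxcl12 averaged 49.98 CPM over the 12 livers and Ccl9 20.4 CPM, followed by Ccl6 with 4.44 CPM. Cxcl9 was next with 2.19 CPM per kb, and the ranges of these 4 genes over the 12 livers did not overlap. Below them, Cxcl9, Cxcl13 (1.60 CPM per kb), Cxcl1 (1.47), Ccl24 (1.27) and Cxcl10 (0.640) overlapped each with its neighbour in this order. Ccl2 was last with 0.141 CPM per kb and did not reach the lowest value of Cxcl10.

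Ccl2, the principal attractant of monocytes, was too low to judge. It had 2, 5 and 2 reads in WT at ZT8, 2, 3 and 3 in Rev KO at ZT8, 4, 4 and 4 in WT at ZT20 and 6, 5 and 2 in Rev KO at ZT20. The genotypes overlapped at both times, 6 of 12 libraries had 3 reads or fewer, and the gene did not pass the filter on low counts, so that no fold change is given. None of the other 8 chemokines had a library at 3 reads or fewer. The smallest counts among them were 14 reads for Cxcl13, 18 for Ccl24, 19 for Cxcl10 and 24 for Cxcl1, and differences of these genes carry correspondingly wide errors.

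**Figure D1:**
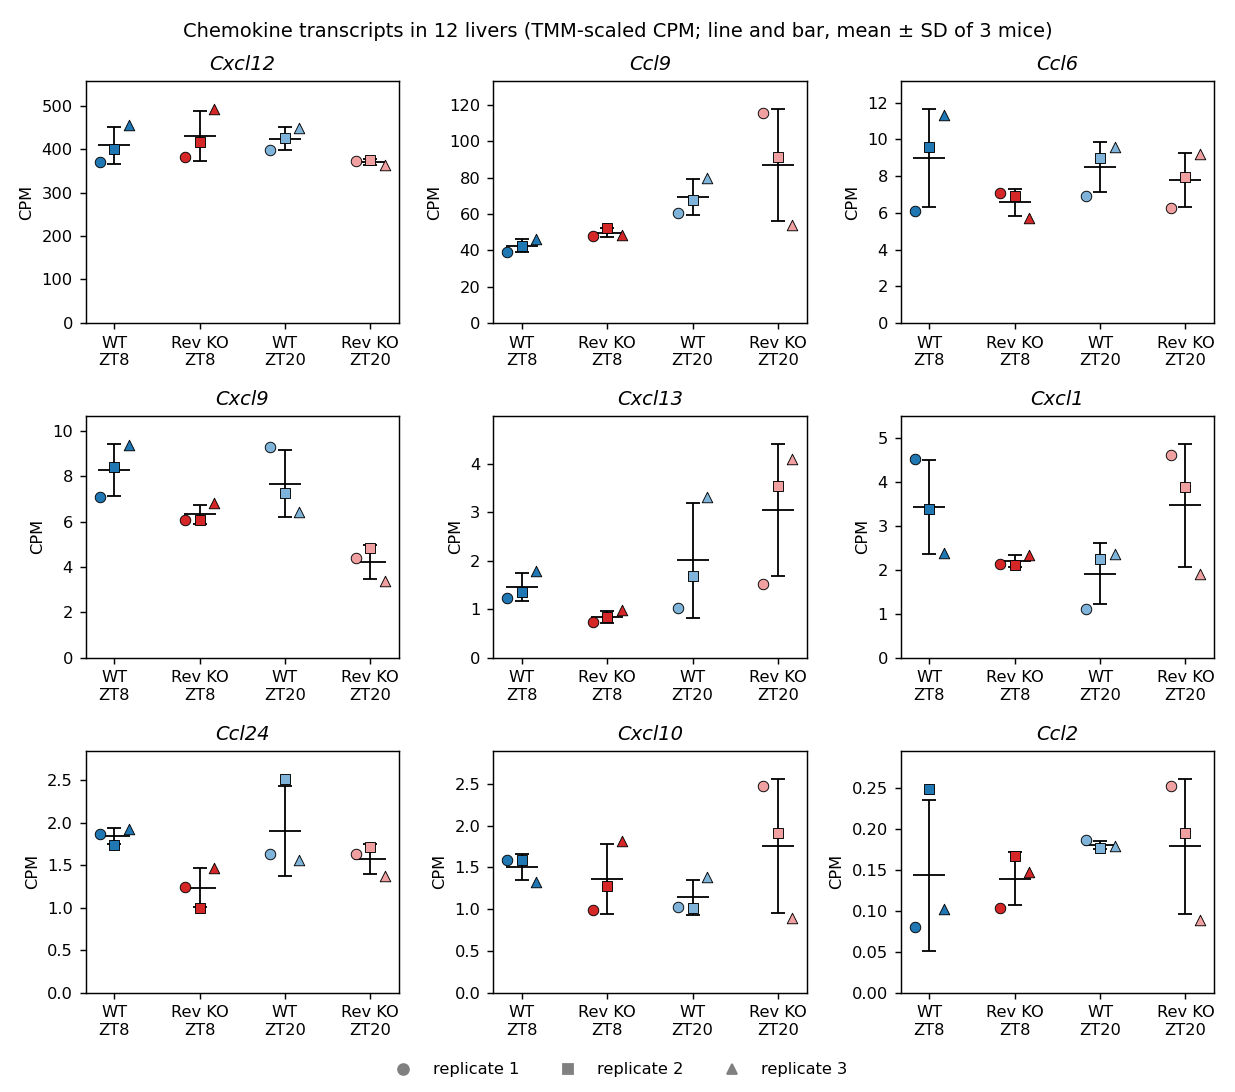
Level of each chemokine in TMM-scaled CPM (y axis, from 0) in every liver, by genotype and time (x axis), ordered by level per kilobase. Symbols are single mice, and lines with bars are the mean ± SD of 3 mice. The 3 Rev KO livers at ZT20 lie below the 3 WT livers for Cxcl9, and range from 54.0 to 115 CPM for Ccl9.

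At ZT8, when REV-ERBα protein is abundant in WT liver, none of the 8 chemokines was called between the genotypes. The count was 0 in edgeR and 0 in DESeq2, and 2 genes, Cxcl9 and Ccl24, had an unadjusted p below 0.05, whereas 8.45% of all 14488 tested genes were called in this comparison. The fitted difference was negative for 6 of the 8 genes, with a median log2 fold change of -0.42 beside a median of 0.0018 over all tested genes. Kupffer cell markers moved the same way, with a median log2 fold change of -0.47 over 9 genes, none of them called. They summed to 387, 503 and 604 CPM in WT and 345 to 420 CPM in Rev KO, so that replicate 1 of WT lay within the Rev KO range. Medians were also negative for dendritic cell (-0.32), monocyte (-0.27), B-cell (-0.26) and sinusoidal endothelial markers (-0.07). They were positive for hepatocyte (0.29), cholangiocyte (0.28), neutrophil (0.22) and stellate cell markers (0.04). The part of these cell types in the chemokine values was not tested. Without replicate 1 of WT at ZT8, Ccl6 was called, as given below. With replicate 1 as the only WT liver at ZT8, a setting in which that lone liver is assumed to vary like the other groups, 0 were called.

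Ccl24 and Cxcl9 came closest. Ccl24 stood at 1.87, 1.74 and 1.93 CPM in WT and at 1.25, 1.00 and 1.47 CPM in Rev KO at ZT8. The 2 groups did not overlap, but the log2 fold change of -0.57 ± 0.24 (SE) did not pass the edgeR test (adjusted p = 0.170). Cxcl9 measured 7.08, 8.42 and 9.35 CPM in WT and 6.08, 6.06 and 6.81 CPM in Rev KO. These groups did not overlap either, and the log2 fold change was -0.39 ± 0.16 (edgeR, adjusted p = 0.167).

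Cxcl1, the neutrophil attractant, measured 4.54, 3.39 and 2.39 CPM in WT and 2.13, 2.11 and 2.35 CPM in Rev KO at ZT8. The Rev KO livers lay close together just below the lowest WT liver (log2 fold change -0.66 ± 0.34, edgeR, adjusted p = 0.267). Cxcl13, the B-cell attractant, measured 1.23, 1.35 and 1.78 CPM in WT and 0.727, 0.833 and 0.979 CPM in Rev KO. Here too the groups were separate, with a log2 fold change of -0.76 ± 0.49 that rested on 93 reads in WT and 49 in Rev KO (edgeR, adjusted p = 0.379).

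Ccl6, expressed in myeloid cells, measured 6.09, 9.57 and 11.3 CPM in WT and 7.06, 6.94 and 5.73 CPM in Rev KO at ZT8. The lowest WT liver lay within the Rev KO range, and the log2 fold change of -0.44 ± 0.21 was not called (edgeR, adjusted p = 0.230). The result depended on the WT livers used. Without replicate 1 of WT, the log2 fold change was -0.67 and passed the test (adjusted p = 0.0219), and with replicate 1 as the only WT liver it was 0.11 (adjusted p = 0.908).

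Cxcl12, Ccl9 and Cxcl10 overlapped or nearly overlapped between the genotypes at ZT8. Cxcl12, the most abundant, measured 371, 400 and 455 CPM in WT and 382, 417 and 493 CPM in Rev KO. Its log2 fold change of 0.08 ± 0.10, with a 95% interval from -0.13 to 0.28, was estimated with more reads than any other member (adjusted p = 0.716, edgeR). Ccl9 measured 39.0, 42.3 and 46.5 CPM in WT and 48.1, 52.4 and 48.4 CPM in Rev KO, and was not called (log2 fold change 0.22 ± 0.23, adjusted p = 0.624, edgeR). Cxcl10, induced by interferons, measured 1.59, 1.59 and 1.32 CPM in WT and 0.987, 1.28 and 1.81 CPM in Rev KO, with the Rev KO livers spanning the WT range (adjusted p = 0.845, edgeR).

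The 3 WT livers at ZT8 were then set side by side, because they differed strongly in the acute-phase response, the set of secreted proteins that hepatocytes make on inflammatory cytokine signals. Saa1, serum amyloid A1, measured 60.8 CPM in replicate 1 but 4972 and 6489 CPM in replicates 2 and 3. Lcn2, which encodes the iron-scavenging lipocalin 2, measured 3.30, 307 and 393 CPM. Against the same replicate 1, Saa1 was 81.8- and 107-fold higher and Lcn2 93.0- and 119-fold higher.

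The chemokines did not share this pattern. Between the highest and the lowest of the 3 WT livers, the 8 tested chemokines differed by factors from 1.11 (Ccl24) to 1.90 (Cxcl1). Cxcl1 was highest in replicate 1, which had the lowest Saa1, and reached 0.747 of that level in replicate 2 and 0.527 in replicate 3 (95% counting interval of the latter 0.367 to 0.746). For Ccl6 the ratios were 1.57 (1.26 to 1.96) and 1.86 (1.51 to 2.30), and Ccl6 was the only tested chemokine at least 1.5-fold from replicate 1 in the same direction in both other livers, a pattern shown by 8.4% of all tested genes. These intervals cover counting error only.

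For the other genes, the difference was small or within counting error. Cxcl12 in replicates 2 and 3 was 1.08 and 1.23 times replicate 1, Ccl9 1.08 and 1.19 times, and Cxcl9 1.19 and 1.32 times, and the ratios for replicate 3 all had intervals above 1. The intervals of Cxcl10 (1.00 and 0.830), Cxcl13 (1.09 and 1.44) and Ccl24 (0.932 and 1.03) included 1 in both livers. Ccl2 had 2, 5 and 2 reads and could not be compared. Nfkbia, which encodes the NF-κB inhibitor IκBα and is itself a target of NF-κB and of glucocorticoids, measured 38.4, 38.8 and 37.1 CPM, with a ratio of the highest to the lowest liver of 1.05, below that of every tested chemokine. Markers of Kupffer cells, the resident macrophages of the liver, summed to 387, 503 and 604 CPM over 9 genes in the 3 WT livers at ZT8, rising from replicate 1 to replicate 3. The same order was seen for markers of monocytes (7.64, 10.7 and 14.9 CPM over 6 genes) and dendritic cells (3.74, 5.33 and 6.56 CPM over 5 genes). It was seen with smaller differences for sinusoidal endothelial and stellate cells. Cholangiocyte markers summed to 37.9, 63.2 and 94.7 CPM over 5 genes. That sum was mostly Spp1, which alone ranged from 30.4 to 89.9 CPM in these livers, so that its order was not a trait of the list. Neutrophil markers, also rising from replicate 1 to replicate 3, summed to 3.54, 4.98 and 5.95 CPM over 7 genes, of which Ly6g was at 0 in all 3 livers. Hepatocyte markers instead fell (84210, 67480 and 61670 CPM over 8 genes). T and NK cell markers (1.671, 1.345 and 1.474 CPM over 8 genes) and B-cell markers (4.497, 4.135 and 4.982 CPM over 6 genes) did neither. Ccl6, Cxcl9, Cxcl12, Cxcl13 and Ccl9 rose from replicate 1 to replicate 3, as did Saa1 and Lcn2, whereas Cxcl1 fell and Cxcl10 and Ccl24 did neither. The part of these cell types in the spread of Ccl6 and the other chemokines was not tested.

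**Figure D2:**
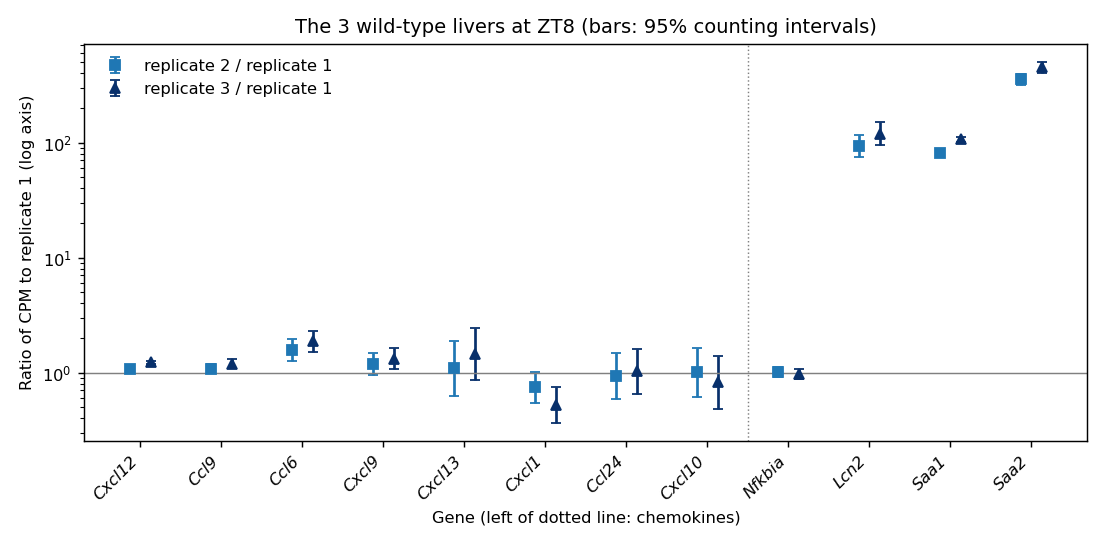
Ratio of the CPM in replicates 2 and 3 to that in replicate 1 of WT at ZT8 (y axis, log scale) for 8 chemokines, Nfkbia and 3 acute-phase genes (x axis), with 95% counting intervals as bars. The chemokines and Nfkbia lie between 0.527 and 1.86, whereas Lcn2, Saa1 and Saa2 lie between 81.8 and 450.

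At ZT20, Cxcl9 was lower in Rev KO liver and no other chemokine was called, that is 1 of 8 in edgeR and 1 in DESeq2, beside 3.63% of all tested genes. With Cxcl1 included, 2 genes had an unadjusted p below 0.05, and the fitted difference was positive for 4 genes and negative for 4, with a median log2 fold change of 0.10. Cxcl9 measured 9.30, 7.25 and 6.44 CPM in WT and 4.41, 4.83 and 3.38 CPM in Rev KO. Every Rev KO liver was below every WT liver. The log2 fold change was -0.86 ± 0.17, a level 1.82-fold lower in Rev KO (edgeR, adjusted p = 0.00842), and it stayed below 0.05 when any single liver was left out, with a highest adjusted p of 0.0491 without replicate 1 of WT at ZT20. The smallest p of an exact permutation test of 3 livers against 3 is 0.1, so that the call rests on the spread shared with other genes and groups.

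Cxcl9 is induced chiefly by interferon-γ, and a list of 23 other interferon-induced genes was examined beside it. It had 1 called gene at ZT20, beside 3.63% of all tested genes. This was the immunoproteasome subunit Psmb9, which was higher in Rev KO (log2 fold change 0.54 ± 0.11, edgeR, adjusted p = 0.0131). The list summed to 834, 789 and 809 CPM in WT at ZT20 and to 1206, 911 and 662 CPM in Rev KO. T and NK cell markers, the cells that Cxcl9 attracts, summed over 8 genes to 1.81, 1.37 and 2.42 CPM in WT and to 0.923, 0.818 and 0.934 CPM in Rev KO at ZT20. None of these 8 markers passed the filter on low counts, 6 of them had 3 reads or fewer in every Rev KO liver at ZT20, and their part in the Cxcl9 difference was not tested. Ifng itself had 0 reads in every liver of Rev KO at ZT20, and likewise of both genotypes at ZT8. Only the WT group at ZT20 held any Ifng reads, and the gene was too low to judge. Kupffer cell markers summed to 337 to 418 CPM in WT and 387 to 464 CPM in Rev KO, and sinusoidal endothelial markers to 317 to 389 and 346 to 365 CPM, overlapping between the genotypes.

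Cxcl10, next to Cxcl9 on the chromosome and acting on the same receptor, measured 1.02, 1.02 and 1.39 CPM in WT and 2.48, 1.91 and 0.889 CPM in Rev KO at ZT20. Replicates 1 and 2 of Rev KO were above all WT livers and replicate 3 below them, and the log2 fold change of 0.63 ± 0.33 was not called (edgeR, adjusted p = 0.413).

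Cxcl1 and Ccl9 showed the same split among the Rev KO livers at ZT20. Cxcl1 measured 1.12, 2.26 and 2.37 CPM in WT and 4.62, 3.90 and 1.91 CPM in Rev KO (log2 fold change 0.86 ± 0.34, edgeR, adjusted p = 0.231). Ccl9 measured 60.7, 67.9 and 80.0 CPM in WT and 115, 91.6 and 54.0 CPM in Rev KO (0.32 ± 0.23, edgeR, adjusted p = 0.599). In both, replicate 3 of Rev KO lay within or below the WT range and the others above it. Without replicate 3, both were called, with log2 fold changes of 1.15 for Cxcl1 (adjusted p = 0.0438) and 0.57 for Ccl9 (adjusted p = 0.0164), and the count of called chemokines went from 1 to 3.

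The interferon-induced genes divided these livers too. Isg15, an interferon-induced ubiquitin-like protein, had 423, 301 and 95 reads (17.8, 11.7 and 4.22 CPM) in the 3 Rev KO livers at ZT20, beside 5.14 to 6.93 CPM in WT. Without replicate 3 of Rev KO, 10 of the 23 interferon-induced genes were called higher at ZT20, against 1 of 23 with it. With it, 3.63% of all tested genes were called. The share of all tested genes called without replicate 3 is not given here. The 10 genes, and the 3 chemokines called in that setting, therefore cannot be set against it. Which of the 3 livers is the usual one cannot be told from these data, and the part of interferon-induced genes in the chemokine values was not tested.

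Cxcl13, Ccl6, Ccl24 and Cxcl12 were not called between the genotypes at ZT20. Cxcl13 measured 1.02, 1.68 and 3.31 CPM in WT and 1.51, 3.55 and 4.09 CPM in Rev KO. Its WT livers alone spread widely, and the log2 fold change of 0.60 ± 0.39 was not called (edgeR, adjusted p = 0.550). Ccl6 measured 6.93, 8.98 and 9.57 CPM in WT and 6.25, 7.95 and 9.20 CPM in Rev KO (-0.12 ± 0.21, edgeR, adjusted p = 0.869). The ranges of both genes overlapped widely. Ccl24, the eosinophil attractant, measured 1.63, 2.52 and 1.57 CPM in WT and 1.64, 1.71 and 1.38 CPM in Rev KO (-0.27 ± 0.23, edgeR, adjusted p = 0.673). Cxcl12 measured 397, 427 and 448 CPM in WT and 374, 376 and 364 CPM in Rev KO. Its Rev KO livers were all below the WT livers, but the log2 fold change was only -0.19 ± 0.10 (edgeR, adjusted p = 0.427).

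**Figure D3:**
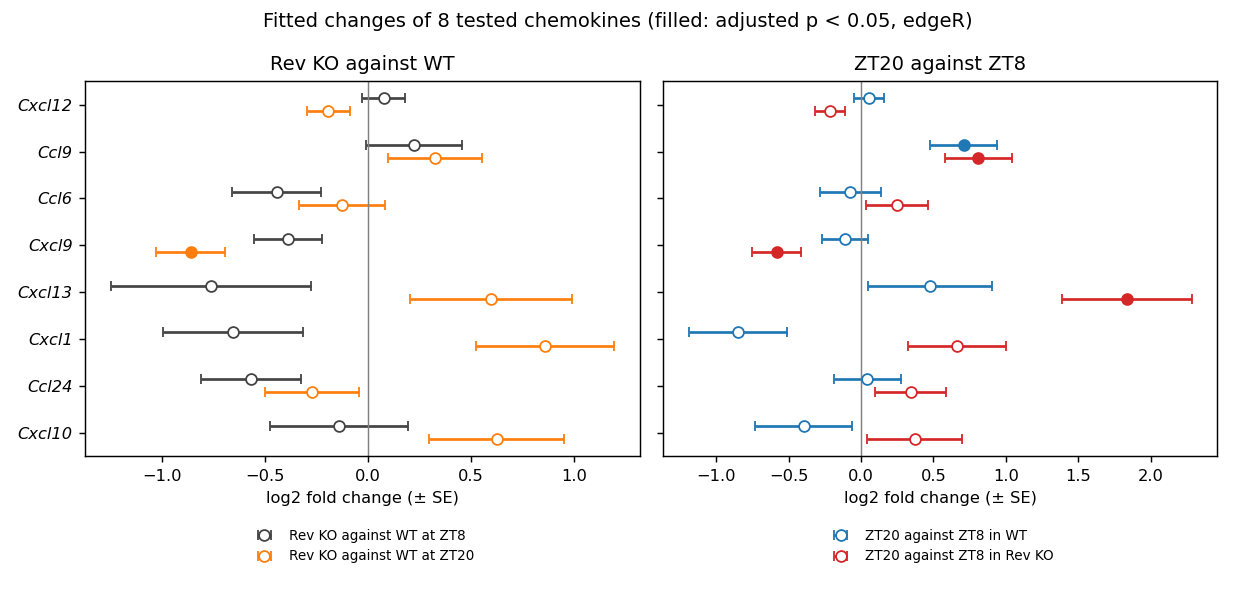
Fitted log2 fold changes (x axis) with their standard errors for the 8 tested chemokines (y axis), between the genotypes at each time (left) and between the times in each genotype (right). Filled symbols passed an adjusted p of 0.05 in edgeR, namely Cxcl9 on the left and Ccl9 (both genotypes), Cxcl13 and Cxcl9 (the latter 2 in Rev KO) on the right.

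Whether the genotype effect differed between the times was tested as an interaction, with 5.88% of all tested genes called. None of the 8 chemokines passed in edgeR, 2 (Cxcl1 and Cxcl13) had an unadjusted p below 0.05, and DESeq2 called 1. Cxcl1 was this gene. Its effect of -0.66 at ZT8 and 0.86 at ZT20 differed by -1.51 ± 0.48 on the log2 scale, with an adjusted p of 0.0861 in edgeR and 0.0367 in DESeq2. Without replicate 3 of Rev KO at ZT20, the difference was -1.80 and passed in edgeR as well (adjusted p = 0.0163). Cxcl13 had a difference of -1.36 ± 0.63 (edgeR, adjusted p = 0.253) and Cxcl9, called at ZT20 and not at ZT8, a difference of 0.47 ± 0.23 (edgeR, adjusted p = 0.284). The larger Cxcl9 effect at ZT20 was therefore not shown to differ from that at ZT8.

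Between the times of day, Ccl9 was the only chemokine called in WT, where 27.7% of all tested genes changed. It rose from a mean of 42.6 ± 3.73 CPM (SD, n = 3) at ZT8 to 69.5 ± 9.79 CPM (n = 3) at ZT20, a log2 fold change of 0.71 ± 0.23 (edgeR, adjusted p = 0.0488). All WT livers at ZT20 were above all WT livers at ZT8. The call was nevertheless at the edge of the threshold, since leaving out any of 10 of the 12 livers ended it in edgeR, the exceptions being replicates 1 and 3 of Rev KO at ZT20. It was also lost with replicate 1 as the only WT liver at ZT8 (adjusted p = 0.246), while DESeq2 gave an adjusted p of 0.00285. Cxcl1 averaged 3.44 ± 1.07 CPM at ZT8 and 1.91 ± 0.69 CPM at ZT20 (n = 3 each) and did not pass (log2 fold change -0.85 ± 0.34, edgeR, adjusted p = 0.0795).

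In Rev KO liver, 3 of 8 chemokines changed between ZT8 and ZT20, beside 17.5% of all tested genes, and DESeq2 also called 3. Ccl9 rose from 49.7 ± 2.37 to 87.0 ± 31.0 CPM (SD, n = 3 each), a log2 fold change of 0.81 ± 0.23 (edgeR, adjusted p = 0.0405). Cxcl13 rose from 0.847 ± 0.127 to 3.05 ± 1.36 CPM, a 3.57-fold change on 49 and 219 summed reads (log2 fold change 1.84 ± 0.45, edgeR, adjusted p = 0.0137). Cxcl9 fell from 6.31 ± 0.43 to 4.21 ± 0.75 CPM (-0.58 ± 0.17, edgeR, adjusted p = 0.0284). In each of these 3 genes the livers of the 2 times did not overlap. The genotype comparisons and the time comparisons share livers, and the interaction above is the test of whether they differ: for Cxcl13, with a change of 0.48 ± 0.43 in WT, it was not passed. Leaving out 5 of the 6 Rev KO livers, each in turn, lowered the count, namely to 0 without replicate 1 or 2 at ZT8 and to 1 without replicate 3 at ZT8 or replicate 1 or 2 at ZT20. Without replicate 3 at ZT20 the count was again 3, but with Cxcl1 called (0.95, adjusted p = 0.0418) and Cxcl9 not. Ccl9 was the least stable of the 3, losing its call when any of 9 of the 12 livers was left out, with an adjusted p of 0.04999 in a further case, without replicate 1 of WT at ZT20, and when the fit was made on the 6 Rev KO livers alone (adjusted p = 0.118). The call of Cxcl13 was lost with a highest adjusted p of 0.0563, without replicate 1 of Rev KO at ZT8, and that of Cxcl9 with a highest of 0.111, without replicate 3 of Rev KO at ZT20.

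The transcripts that followed each chemokine most closely over the 12 livers were described by Pearson's r of log2 CPM, with n = 12 and without a test, because the livers share genotype, time and library properties. For Ccl6 the closest of all tested genes was Vsig4 (r = 0.957), a complement receptor of Kupffer cells, followed by Pirb and Wsb1. Vsig4 measured 30.2, 39.3 and 47.4 CPM in the WT livers at ZT8, in which Ccl6 measured 6.09, 9.57 and 11.3 CPM. For Cxcl10 the closest were Uhrf1 (r = 0.922), Spint1 and Mx1 (r = 0.845), Mx1 being an interferon-induced antiviral GTPase with 3.11, 2.92 and 0.800 CPM in Rev KO at ZT20.

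Cxcl9 was closest to Ctnnb1 (r = 0.937), which encodes β-catenin, and to Spopl and Cd37. Cxcl12 was closest to Cep152, Prr14l and the corepressor Ncor1 (r = 0.891), and Ccl9 to Gm4617, Sept11 and Spry1 (r between 0.936 and 0.940). Cxcl1 was closest to Chchd6 (r = 0.924), Rfc3 and BC106179, Cxcl13 to Galnt6, Dennd3 and Whrn, and Ccl24 to Npff, Dpysl2 and Drc1. Among the members themselves, Cxcl1 and Cxcl10 had r = 0.786, whereas the neighbours Cxcl9 and Cxcl10 had r = -0.131. Saa1 had r = 0.664 with Cxcl9 and 0.593 with Ccl6, values between -0.112 and 0.379 with Cxcl1, Cxcl10, Cxcl12, Cxcl13 and Ccl24, and r = -0.424 with Ccl9.

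**Figure D4:**
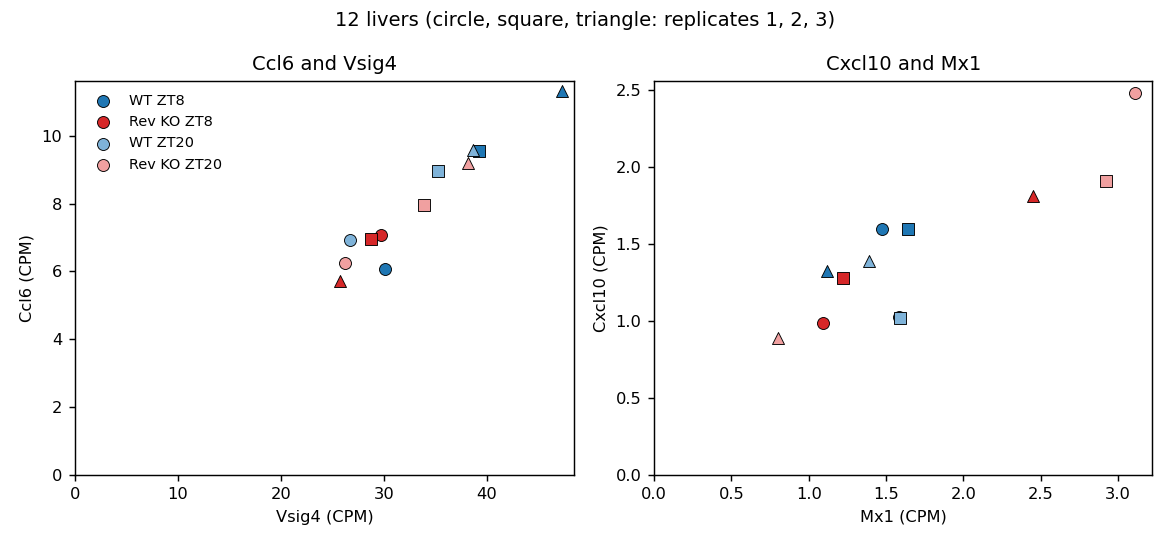
CPM of Ccl6 against Vsig4 (left) and of Cxcl10 against Mx1 (right) in the 12 livers, with both axes from 0, coloured by group and with a symbol for each replicate number. Ccl6 rises with Vsig4 across all groups, and the highest Cxcl10 and Mx1 belong to replicate 1 of Rev KO at ZT20.

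The receptors of these chemokines were scarce in whole liver. Of 22 chemokine receptors, 12 passed the filter on low counts. The receptor of Ccl2, Ccr2, had a median of 1.56 CPM over the 12 livers, the receptors of Cxcl12, Cxcr4 and Ackr3, had medians of 0.492 and 0.565 CPM, and the receptor of Cxcl13, Cxcr5, had a median of 0.477 CPM. Cxcr2, Cxcr3 and Ccr1, the receptors of Cxcl1, of Cxcl9 and Cxcl10, and of Ccl6 and Ccl9, had medians of 3, 4 and 4 reads and were too low to test. Ccr3, the receptor of Ccl24, passed the filter with 1 to 25 reads.

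Only Ackr2, a decoy receptor that removes inflammatory CC chemokines, was called between the genotypes among the 12 tested receptors. That is 1 of 12 at ZT8, at ZT20 and for the difference of the genotype effects. Of all tested genes, 8.45%, 3.63% and 5.88% were called in these comparisons, so that the count at ZT8 was near the share over all genes. It measured 3.62, 3.04 and 3.20 CPM in WT and 5.04, 5.06 and 6.02 CPM in Rev KO at ZT8, and 4.23, 4.64 and 4.07 CPM in WT and 2.90, 2.92 and 2.49 CPM in Rev KO at ZT20. Rev KO livers were thus all above WT at ZT8 and all below at ZT20. The log2 fold changes were 0.70 ± 0.15 at ZT8 (edgeR, adjusted p = 0.00799) and -0.64 ± 0.15 at ZT20 (edgeR, adjusted p = 0.0263), and their difference of 1.34 ± 0.21 passed the test (edgeR, adjusted p = 0.00126). The call at ZT8 was lost with replicate 1 as the only WT liver (0.57, adjusted p = 0.235) and the call at ZT20 without replicate 3 of Rev KO (-0.57, adjusted p = 0.0903), while the difference was called in both cases (adjusted p = 0.0208 and 0.00380).

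Of 29 other chemokine ligands, 8 were tested, and 16 had 3 reads or fewer in all 12 livers. At ZT8 none was called between the genotypes, beside 8.45% of all tested genes. At ZT20 1 was called higher and 1 lower, beside 3.63% of all tested genes. At ZT20 Ccl25, best known as a thymic and intestinal chemokine, was higher in Rev KO (6.67, 6.31 and 5.56 CPM against 3.12, 4.42 and 4.43 CPM, log2 fold change 0.63 ± 0.16, edgeR, adjusted p = 0.0449), and Ccl27a was lower (20, 13 and 4 reads against 35, 30 and 37 reads, -1.57 ± 0.40, edgeR, adjusted p = 0.0418). Ccl27a did not pass in DESeq2 (adjusted p = 0.0595), nor in edgeR without replicate 3 of Rev KO at ZT20 (-1.19, adjusted p = 0.107), whereas Ccl25 passed in both (adjusted p = 0.0246 and 0.0490). With replicate 1 as the only WT liver at ZT8, which is not part of this comparison, the log2 fold changes were 0.63 and -1.57 and did not pass (adjusted p = 0.0514 and 0.0503). Cxcl16, a membrane-bound chemokine, measured 5.96 to 8.27 CPM over the 12 livers and was not called in any comparison. At ZT20 its Rev KO livers (5.96, 6.86 and 7.69 CPM) were all below the WT livers (8.14, 8.27 and 7.78 CPM). The log2 fold change was -0.24 ± 0.11 (edgeR, adjusted p = 0.343). Between the times in WT, Cxcl14 fell from 6.49, 12.6 and 11.6 CPM at ZT8 to 0.837, 0.929 and 0.671 CPM at ZT20, a log2 fold change of -3.64 ± 0.63 (edgeR, adjusted p = 0.00245), the largest fall among the tested ligands. With replicate 1 as the only WT liver at ZT8 the log2 fold change was -2.99 and no longer passed (edgeR, adjusted p = 0.0588).

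The genes that act upstream were compared in the same way. Of 13 tested genes of the NF-κB pathway, 2 were lower in Rev KO at ZT8 and 0 were higher, beside 8.45% of all tested genes called in either direction. Nfkbia measured 38.4, 38.8 and 37.1 CPM in WT and 25.81, 25.11 and 28.35 CPM in Rev KO. Its log2 fold change was -0.53 ± 0.10 (edgeR, adjusted p = 0.00488). At ZT20 only Nfkbia was called of the 13, again lower in Rev KO (-0.39 ± 0.10, edgeR, adjusted p = 0.0469), beside 3.63% of all tested genes. That call was lost without replicate 3 of Rev KO at ZT20 (-0.40, edgeR, adjusted p = 0.0907). The study also listed Nfkbia among the genes altered at ZT8 in its own RNA sequencing. By qRT-PCR it reported the opposite direction, Nfkbia being upregulated in Rev-erbα-/- liver. Il1b, the inflammatory cytokine interleukin-1β, measured 1.27, 2.39 and 3.10 CPM in WT and 1.04, 0.833 and 0.784 CPM in Rev KO at ZT8 (-1.33 ± 0.36, edgeR, adjusted p = 0.0352). With replicate 1 as the only WT liver at ZT8, the log2 fold changes at ZT8 were -0.54 for Nfkbia and -0.53 for Il1b. Of these 2 genes, only Nfkbia thus kept the size of its change. Of 23 acute-phase genes, 9 were lower in Rev KO at ZT8, Saa1 among them, beside 8.45% of all tested genes called in either direction. With replicate 1 as the only WT liver at ZT8, the log2 fold change of Saa1 was -0.825 in place of -6.80. Without replicate 3 of Rev KO at ZT20, which is not part of that comparison, the count of acute-phase genes called lower was 4 in place of 9. The share of all tested genes called in that setting is not given here, so that the 4 cannot be set against it.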

How the data were processed

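The authors removed livers, froze them, prepared poly(A) libraries and mapped the reads to mm10 with TopHat. They deposited raw counts of uniquely mapped reads per gene symbol from HTSeq-count (union mode, minimum alignment quality 10, strand ignored), without normalization, and tested them with DESeq2 1.6.3. The annotation release behind these counts is not given in the sources used here. The 5 summary lines of each file were left out. Multi-place alignments, not counted, numbered 1.24 to 3.28 per counted read.

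Groups and replicate numbers came from the sample labels. Genes passing filterByExpr were fitted with edgeR 4.0.16 (R 4.3.3, TMM, robust quasi-likelihood, 4 group means over 12 libraries), with Benjamini-Hochberg adjustment over 14488 genes and a threshold of 0.05. A gene failing the filter was called too low to judge. The procedure was tested on simulated data. CPM are counts relative to the TMM-scaled library size. Exon lengths came from GENCODE M21. Of the lists, the genes named are those called between genotypes or among the 3 highest, besides Saa1, Nr1d1 and Nfkbia. Marco, Isg15, Cxcl11, Cxcl14 and Ifng and the receptors of the 9 chemokines were added after their values were seen. The 9 chemokines, the lists and the tests were chosen with earlier results of these data known. Alternatives were DESeq2 1.42.0, its size factors in edgeR, other filters, the 6 libraries compared, a replicate block, and leaving out libraries.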

Additional observations from a re-analysis of the deposited data

How the results depend on the processing

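Of 752 values recomputed for the 8 chemokines in single alternatives, 694 kept their direction and their side of the threshold, 35 lost a call, 8 gained one and 15 changed sign. Cxcl9 at ZT20 was called in all 19 alternatives (adjusted p 0.000422 to 0.0491). The count of called chemokines ranged, with single livers left out, from 0 to 1 between genotypes at ZT8, from 1 to 3 at ZT20, from 0 to 1 for the difference of genotype effects, and between times from 0 to 2 in WT and from 0 to 3 in Rev KO. DESeq2 called 1 chemokine, Cxcl1, for the difference of genotype effects, against 0 in edgeR. Between times in WT the count was 0 in place of 1, Ccl9 being lost, with DESeq2 size factors, with no filter, with the replicate block and with replicate 1 as the only WT liver at ZT8, and the cause was not tested. That last setting was chosen after seeing the data. It turned the sign of Ccl6 at ZT8 (0.11), of the difference of genotype effects of Ccl6 (0.23) and Ccl9 (0.015), and of the WT time change of Cxcl9 (0.11) and Ccl6 (0.48). With single livers left out, log2 values that changed sign ranged from -0.41 to 0.040 (Cxcl10) and -0.032 to 0.16 (Cxcl12) at ZT8, -0.26 to 0.011 (Ccl6) at ZT20, -0.35 to 0.16 for the difference of Ccl9, and for the WT time change -0.023 to 0.14 (Cxcl12), -0.10 to 0.79 (Cxcl13), -0.31 to 0.13 (Ccl6) and -0.21 to 0.16 (Ccl24). None of these was a called value. Equal replicate numbers shared only a number, since deviations of same-numbered livers correlated between -0.083 and 0.074. The replicate block lowered the count between times in Rev KO from 3 to 2, without Ccl9 (adjusted p = 0.0888).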

Other observations

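Marco, a scavenger receptor of Kupffer cells, measured 1.59, 4.48 and 7.78 CPM in WT and 0.727, 1.56 and 2.94 CPM in Rev KO at ZT8, and 0.279, 0.796 and 1.07 CPM in WT and 3.90, 7.13 and 7.16 CPM in Rev KO at ZT20. The difference of the genotype effects was -4.43 ± 0.97 on the log2 scale (edgeR, adjusted p = 0.0293). It was -2.93 and no longer passed with replicate 1 as the only WT liver at ZT8 (edgeR, adjusted p = 0.175), and -4.30 without replicate 3 of Rev KO at ZT20 (edgeR, adjusted p = 0.0630). Ccl6, which followed the Kupffer cell gene Vsig4, had r = 0.345 with Marco over the 12 livers.

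Cxcl11, the third ligand of Cxcr3 beside Cxcl9 and Cxcl10, was higher at ZT20 than at ZT8 in both genotypes. It measured 1.43, 1.59 and 1.78 CPM in WT at ZT8 and 2.70, 3.05 and 2.64 CPM at ZT20 (log2 fold change 0.81 ± 0.21, edgeR, adjusted p = 0.00947), and in Rev KO 1.25, 1.44 and 2.11 CPM and 3.82, 3.00 and 3.56 CPM (1.10 ± 0.21, edgeR, adjusted p = 0.00207). With replicate 1 as the only WT liver at ZT8, the WT change was 0.96 and no longer passed (edgeR, adjusted p = 0.0636), while that in Rev KO did (adjusted p = 0.00284). Ccl27a had 3 reads or fewer in all 6 livers at ZT8 and between 4 and 37 reads in the livers at ZT20.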
